A study of Rattus norvegicus with 10 samples.

Results

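The miR-34 family was followed by small RNA sequencing of the hippocampus, taken from Wistar rats at 10 weeks of age. Its members were taken by name: 8 mature miRNAs of the miR-34a, miR-34b/c and miR-449 loci, out of 765 rat miRNAs in the deposited table. All 8 had a row, 6 were listed above 0 in all 10 libraries, and miR-34a-3p and miR-449c-5p were listed at 0 throughout. The 2-VO group held 5 libraries from rats with occlusion of both common carotid arteries, and the sham group held 5 libraries from sham-operated rats. This operation lowers blood flow to the brain over a long time. The sources used here do not give the interval between operation and sampling. They also do not state that each library was made from its own animal. A p-value thus sets the group difference against the spread between these libraries, and that spread may be technical.

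miR-34a is a direct transcriptional target of the tumour suppressor p53, and its best known targets include Sirt1, Bcl2 and cell cycle genes. In mouse, miR-34b and miR-34c, made from a shared transcript, and the miR-449 cluster act redundantly in cells that carry many motile cilia, such as ependyma, choroid plexus epithelium and airway epithelium. p53 also induces miR-34b/c. The family is defined by its seed, bases 2 to 8 of the miRNA, which pairs with target mRNAs.

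The mature sequences show which members share a seed and how alike the neighbouring members are. They are from RefSeq (build GRCr8, all 8 members matched by name), 5′ to 3′, with the seed in capitals.
miR-34a-5p: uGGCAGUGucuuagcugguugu
miR-34b-5p: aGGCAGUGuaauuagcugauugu
miR-34c-5p: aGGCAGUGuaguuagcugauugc
miR-449a-5p: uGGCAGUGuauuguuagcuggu
miR-449c-5p: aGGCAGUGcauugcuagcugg
miR-34a-3p: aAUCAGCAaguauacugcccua
miR-34b-3p: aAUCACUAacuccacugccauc
miR-34c-3p: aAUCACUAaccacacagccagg
The 5 miRNAs of the 5p arms shared the seed GGCAGUG, and the RefSeq table held 0 further rat miRNAs with it. Of the 3p arms, miR-34b-3p and miR-34c-3p shared the seed AUCACUA, and miR-34a-3p had a seed of its own. miR-34b-5p and miR-34c-5p were the same at 21 of 23 positions, with the differences A11G and U23C (position from 1 at the 5′ end, miR-34b-5p base first). In that table Mir34a lies on chromosome 5 (+ strand) within the lncRNA LOC103692514. Mir34b and Mir34c lie on chromosome 8 (- strand), 441 bases apart, and overlap the span of Hoatz, a gene of motile cilia and sperm flagella in mouse. Mir449c and Mir449a lie on chromosome 2 (+ strand), 1436 bases apart, within the span of the lncRNA LOC134485839.

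The hairpins of the miR-34 loci are shown because the arm that was recovered differed between them. The mature arms are in capitals, 5p arm first.
Mir34a: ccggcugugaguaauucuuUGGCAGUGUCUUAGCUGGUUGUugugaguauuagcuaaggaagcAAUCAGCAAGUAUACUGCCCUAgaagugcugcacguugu
Mir34b: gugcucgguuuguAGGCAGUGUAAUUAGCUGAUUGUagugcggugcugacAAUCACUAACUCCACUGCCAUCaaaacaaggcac
Mir34c: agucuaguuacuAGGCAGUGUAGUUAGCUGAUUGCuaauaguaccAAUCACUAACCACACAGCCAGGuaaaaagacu

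Values are RPM, the deposited reads scaled to a fixed total, each relative to 13095384 to 13839174 reads in a 2-VO library and 13032805 to 13850400 reads in a sham library. The listed miRNAs took 60.3% to 78.0% of those reads in 2-VO and 66.4% to 77.0% in sham libraries, with the lowest share in 2-VO replicate 3. In every library the lowest nonzero value was that of 10 reads, so a listed 0 is taken to mean fewer than 10 reads. Neuronal miRNAs were abundant, with 62805 to 85348 RPM summed over 7 miRNAs in 2-VO and 72605 to 83879 RPM in sham libraries. No other tissue or brain region was compared, so this is no check of the label hippocampus. Reads on different miRNAs were set side by side as RPM, and ligation preferences of a sequence enter such comparisons.

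miR-34c-5p was the main member, ranked 89 of 765 by mean level. It stood at 588, 529, 698, 464 and 528 RPM in 2-VO replicates 3, 5, 6, 7 and 8, against 290.2, 541, 683, 651 and 1061 RPM in sham replicates 1 to 5. The 5 values of 2-VO all lay within the sham range, which was set at both ends by sham replicates 1 and 5. miR-34a-5p stood at 55.0, 64.4, 51.2, 43.8 and 60.4 RPM in the same 2-VO libraries, against 31.3, 40.6, 40.9, 43.0 and 48.7 RPM in the sham libraries. Of the 2-VO libraries, 4 lay above the highest sham library, and 2-VO replicate 7 lay between sham replicates 4 and 5.

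miR-34b-3p, from the 3p arm of the first hairpin of the miR-34b/c transcript, stood at 15.7, 12.2, 15.6, 11.7 and 15.4 RPM in 2-VO, against 9.17, 13.3, 16.1, 20.9 and 23.4 RPM in sham libraries. miR-34c-3p, the minor arm of miR-34c, stood at 8.17, 8.02, 6.31, 6.09 and 7.88 RPM in 2-VO, against 3.97, 5.49, 7.77, 11.8 and 15.7 RPM in sham libraries. miR-34b-5p stood at 4.08, 4.66, 6.005, 3.46 and 3.03 RPM in 2-VO, against 1.88, 3.41, 5.11, 3.85 and 8.82 RPM in sham libraries. In each of these 3, sham replicate 1 was the lowest and sham replicate 5 the highest of all 10 libraries, and the 2-VO values lay inside the sham range.

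miR-449a-5p, the listed member of the miR-449 cluster, was the lowest of the 6, at 2.26, 2.29, 2.66, 2.40 and 2.89 RPM in 2-VO, against 2.60, 2.60, 2.29, 2.00 and 2.15 RPM in sham libraries. These values stand for 30 to 40 reads in 2-VO and 27 to 36 reads in sham libraries. Its coefficient of variation was 10.7% in 2-VO and 11.5% in sham libraries, below the 17.3% and 17.9% that counting error alone gives at these depths. For miR-449c-5p and miR-34a-3p, both listed at 0, any level under 10 reads a library cannot be told from no reads.

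**Figure D1:**
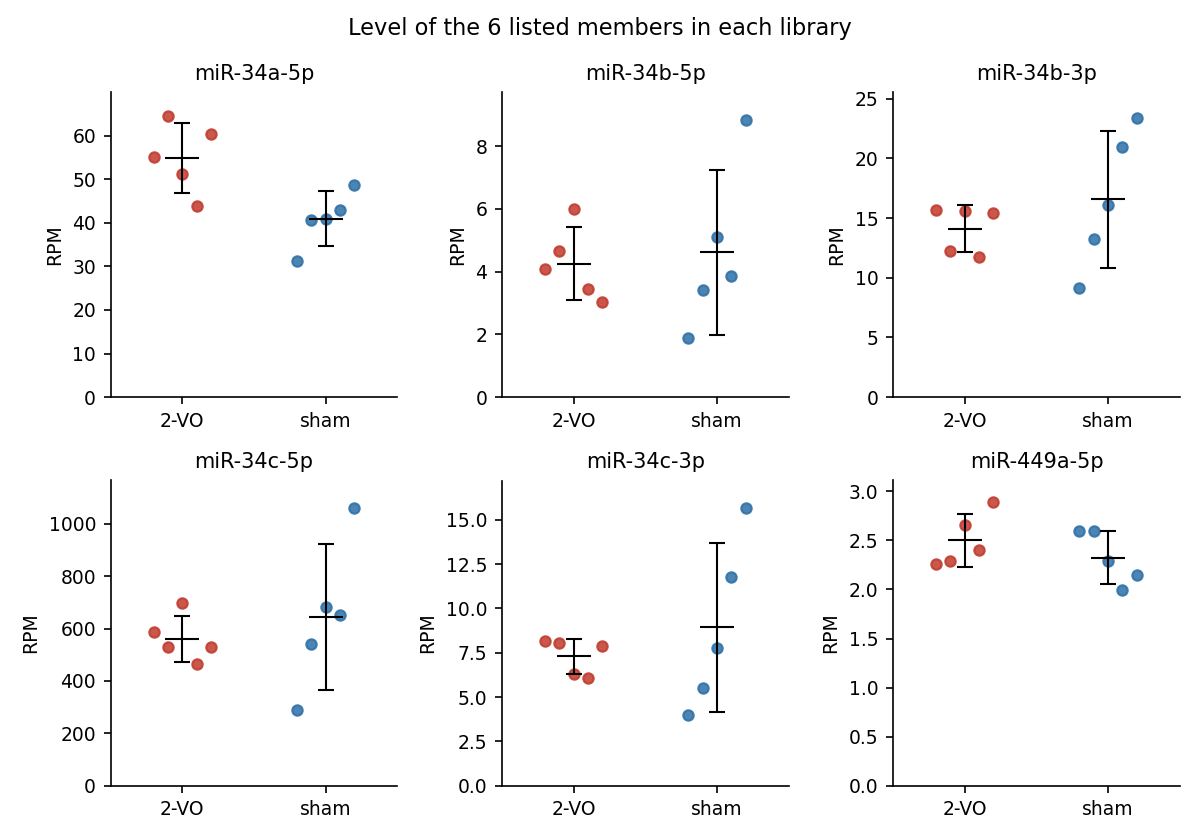
Level in RPM (y axis, from 0) of the 6 listed members in each library, 2-VO left of sham. Points are libraries and black marks the mean ± SD (n = 5). miR-34a-5p sits at 43.8 to 64.4 RPM in 2-VO and 31.3 to 48.7 RPM in sham libraries, while miR-34c-5p spreads from 290.2 to 1061 RPM in sham libraries and from 464 to 698 RPM in 2-VO libraries.

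The order of the members was nearly the same in every library. miR-34c-5p exceeded miR-34a-5p in 10 of 10 libraries, by 8.21-fold to 21.8-fold. miR-34a-5p exceeded miR-34b-3p in 10 of 10, by 2.05-fold to 5.27-fold. miR-34b-3p stood above miR-34c-3p, and miR-34c-3p above miR-34b-5p, in 10 of 10 libraries, though their ranges overlapped across the sham libraries. The last neighbours, miR-34b-5p and miR-449a-5p, kept this order in 9 of 10, and sham replicate 1 had the reverse. Across the sham libraries their ranges overlapped too.

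Of the reads with the seed GGCAGUG, miR-34c-5p held 90.0% ± 1.56 in 2-VO and 92.4% ± 2.13 in sham libraries, and miR-34a-5p held 8.93% ± 1.57 and 6.52% ± 1.97 (SD, n = 5). The summed level of this seed was 623 ± 89.9 RPM in 2-VO and 693 ± 287 RPM in sham libraries. miR-34b-5p held 0.676% ± 0.115 in 2-VO and 0.638% ± 0.101 in sham libraries, and miR-449a-5p held 0.407% ± 0.0656 and 0.406% ± 0.236.

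The design sets 2-VO against sham, and for this family the question is whether the p53 target miR-34a differs apart from the miR-34b/c and miR-449 clusters. None of the 6 members tested passed the threshold of 0.05, and of all 474 miRNAs tested 0 passed, which is 0% (limma's moderated test on log2(RPM + 1), Benjamini-Hochberg adjustment over all 474). An unadjusted p under 0.05 was found for 1 of the 6 members, miR-34a-5p, and for 5.06% of all miRNAs tested (0.844% higher and 4.22% lower in 2-VO). The groups overlapped for all 6 members, and of all miRNAs tested 0.633% had groups that did not overlap. That level was reached by 24 miRNAs with limma, 25 with voom on whole reads and 32 with an exact permutation test, and 0 passed adjustment with any of these.

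miR-34a-5p averaged 55.0 ± 8.02 RPM in 2-VO and 40.9 ± 6.27 RPM in sham libraries (SD, n = 5). The log2 fold change was 0.42 ± 0.14 (SE), with a 95% interval of 0.13 to 0.71 that is not adjusted for the number of miRNAs (limma adjusted p = 0.64). It ranked 6 of 474 by p, and the exact two-sided permutation test gave p = 0.016 (adjusted p = 0.63). Counting error at these reads was 3.68% in 2-VO and 4.28% in sham libraries, against coefficients of variation between libraries of 14.6% and 15.3%. Leaving out any 1 library kept the log2 fold change between 0.33 and 0.50.

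The members of the miR-34b/c transcript had log2 fold changes near or below 0, with wide intervals. miR-34c-5p averaged 561 ± 88.3 RPM in 2-VO and 645 ± 279 RPM in sham libraries, a log2 fold change of -0.10 with an interval of -0.63 to 0.44 (limma adjusted p = 0.96). miR-34b-3p averaged 14.1 ± 1.97 and 16.6 ± 5.74 RPM, a log2 fold change of -0.16 with an interval of -0.60 to 0.28 (limma adjusted p = 0.93). The values were -0.13 (-0.70 to 0.43) for miR-34c-3p and -0.0054 (-0.57 to 0.56) for miR-34b-5p. All 4 intervals hold 0, and those of miR-34c-5p, miR-34c-3p and miR-34b-5p also hold the 0.42 of miR-34a-5p. That of miR-34b-3p ends below 0.42 but overlaps the interval of miR-34a-5p (0.13 to 0.71). Without sham replicate 5 the log2 fold changes were 0.11 for miR-34c-5p, 0.088 for miR-34c-3p and 0.23 for miR-34b-5p, and without sham replicate 1 they were -0.35, -0.35 and -0.22. The direction of miR-34c-5p and miR-34c-3p thus turned with sham replicate 5, and miR-34b-5p also turned when sham replicate 3 (0.055), 2-VO replicate 7 (0.047) or 2-VO replicate 8 (0.083) was left out. For miR-34b-3p the log2 fold change was -0.025 without sham replicate 5 and -0.34 without sham replicate 1.

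miR-449a-5p averaged 2.50 ± 0.269 RPM in 2-VO and 2.33 ± 0.268 RPM in sham libraries, a log2 fold change of 0.075 with an interval of -0.19 to 0.34 (limma adjusted p = 0.96). Of the 6 members 2 had a log2 fold change above 0 and 4 below, where 37.8% of all miRNAs tested lay above and 62.2% below. The share of all miRNAs below 0 was 49.4% after scaling to listed reads, 51.5% with TMM factors and 50.4% with median-of-ratios factors, and miR-34b-5p lay above 0 under all 3.

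**Figure D2:**
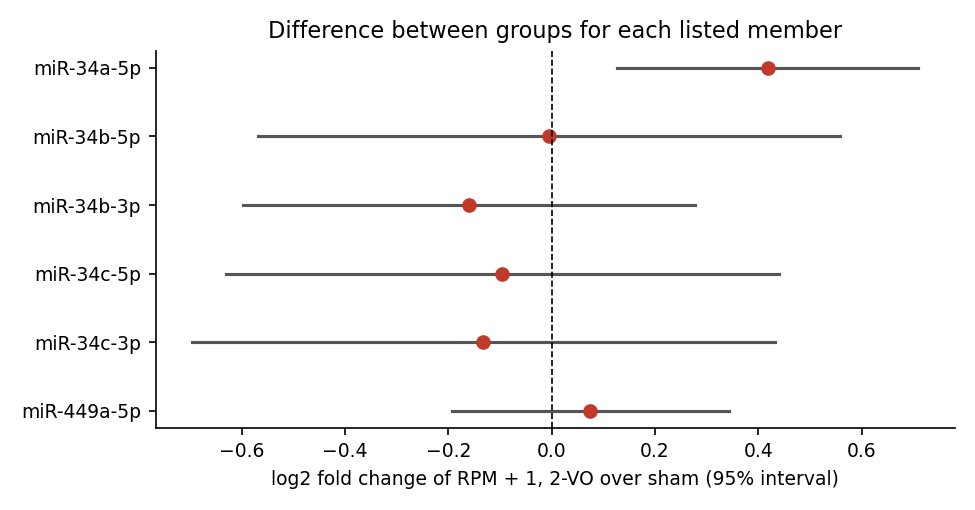
Log2 fold change of RPM + 1, 2-VO over sham (x axis), for the 6 listed members. Points are estimates of limma and lines their 95% intervals (n = 5 each). The interval of miR-34a-5p runs from 0.13 to 0.71, and the intervals of the other 5 members hold 0.

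Whether miR-34a-5p moved apart from the other members was tested on its log2 ratio to each of them, which does not depend on the scaling of a library beyond the pseudocount. The log2 ratio to miR-34b-3p was 1.89 ± 0.252 in 2-VO and 1.31 ± 0.299 in sham libraries (SD, n = 5), a difference of 0.58 (exact two-sided permutation test, p = 0.016, adjusted p = 0.079 over 5 ratios). The log2 ratio to miR-34c-3p differed by 0.55 (exact p = 0.048, adjusted p = 0.11) and that to miR-34c-5p by 0.51 (exact p = 0.071, adjusted p = 0.11). Against miR-34b-5p the difference was 0.42 (exact p = 0.14, adjusted p = 0.14), and against miR-449a-5p it was 0.34 (exact p = 0.087, adjusted p = 0.11). Of the 5 ratios 0 passed adjustment. They share miR-34a-5p and are not separate comparisons, so their common direction adds nothing to the values of miR-34a-5p.

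These ratios depended on a single library and on the pseudocount. Without sham replicate 1, the differences against miR-34b-3p (0.67), miR-34c-5p (0.68) and miR-34c-3p (0.68) each had an adjusted p of 0.040 by the exact permutation test. With a pseudocount of 5 RPM, 4 of the 5 passed and that against miR-34c-5p did not. Expressed as RPM, miR-34c-5p was 10.7, 8.21, 13.7, 10.6 and 8.75 times miR-34a-5p in 2-VO, against 9.26, 13.3, 16.7, 15.1 and 21.8 times in sham libraries. The groups overlapped in this ratio through 2-VO replicate 6 and sham replicate 1.

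The arms of the hairpins were recovered unequally, and in opposite ways for miR-34b and miR-34c. miR-34c-5p was 55.3 to 110.7 times miR-34c-3p over the 10 libraries. miR-34b-3p was 2.59 to 5.44 times miR-34b-5p, so the 3p arm was the larger in 10 of 10 libraries. Ordered by the ratio of 5p to 3p, miR-34c ranked 16 and miR-34b ranked 88 of 132 hairpins with both arms kept, of which 71 had the larger 5p arm and 61 the larger 3p arm. For miR-34a only the 5p arm was listed. The 5p arms of miR-34b and miR-34c thus differed far more in level than the 3p arms, where miR-34b-3p was 1.495 to 2.47 times miR-34c-3p.

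The arm ratios did not differ detectably between the groups. The log2 ratio of 5p to 3p for miR-34b was -1.54 ± 0.336 in 2-VO and -1.70 ± 0.332 in sham libraries (SD, n = 5), a difference of 0.15 with a 95% interval of -0.22 to 0.53 (limma adjusted p = 0.80). For miR-34c it was 6.08 ± 0.288 in 2-VO and 6.04 ± 0.293 in sham libraries, a difference of 0.037 with an interval of -0.30 to 0.37 (limma adjusted p = 0.93). Of all 132 hairpins 0% passed with limma (1 without 2-VO replicate 3 and 3 without sham replicate 5), and 11.4% had an unadjusted p under 0.05, of which the miR-34 hairpins were none.

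miR-34b-5p followed miR-34c-5p closely at a small share of its level. It stood at 0.694%, 0.881%, 0.860%, 0.745% and 0.574% of miR-34c-5p in 2-VO, against 0.647%, 0.631%, 0.747%, 0.591% and 0.831% in sham libraries. The coefficient of variation of this share over the 10 libraries was 15.4%, and the counting error of miR-34b-5p alone was 13.0%. The sequences differ at 2 positions, and the sources used here do not say how reads with a mismatch were assigned, so a part of the miR-34b-5p reads coming from miR-34c-5p was not tested.

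**Figure D3:**
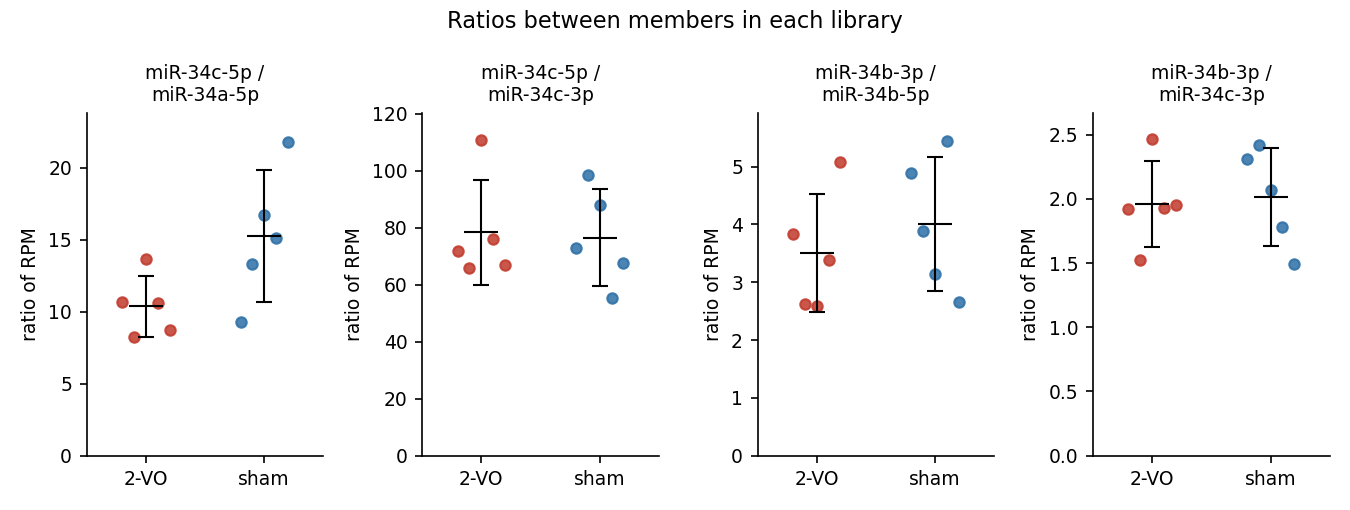
Ratios of RPM between members (y axes, from 0) in each library, 2-VO left of sham. Points are libraries and black marks the mean ± SD (n = 5). The ratio of miR-34c-5p to miR-34a-5p is 8.21 to 13.7 in 2-VO and 9.26 to 21.8 in sham libraries, and the groups overlap in all 4 ratios.

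The 4 members of the miR-34b/c transcript varied together from library to library, mainly through 2 sham libraries. Over all 10 libraries the highest value was 3.66 times the lowest for miR-34c-5p, 4.70 times for miR-34b-5p, 3.94 times for miR-34c-3p and 2.55 times for miR-34b-3p. It was 2.05 times for miR-34a-5p and 1.45 times for miR-449a-5p. In the sham group the coefficient of variation was 43.3% for miR-34c-5p, rank 5 of the 339 miRNAs averaging 10 RPM or more, and 34.6% for miR-34b-3p, rank 6, where the median was 11.4%. In the 2-VO group the coefficients were 15.7% and 14.0%, where the median was 14.9%.

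Of 21 relations computed on log2(RPM + 1), among the 6 members and with a list of choroid plexus and ependyma miRNAs, 9 passed adjustment for Pearson's r (permutation tests with 100000 resamples). miR-34b-5p and miR-34c-5p had r = 0.93 (permutation p = 0.00048, adjusted p = 0.0034) and Spearman's rho = 0.87 (permutation p = 0.0020, adjusted p = 0.021). miR-34b-3p and miR-34c-5p had r = 0.91 (permutation p = 0.00037, adjusted p = 0.0034) and rho = 0.88 (permutation p = 0.0016, adjusted p = 0.021). miR-34b-3p and miR-34c-3p had r = 0.91 (permutation p = 0.00039, adjusted p = 0.0034) and rho = 0.78 (permutation p = 0.011, adjusted p = 0.076). The arms of miR-34c had r = 0.84 and rho = 0.58, and the arms of miR-34b had r = 0.74 and rho = 0.66 (permutation adjusted p = 0.026 and 0.046 for r, 0.20 and 0.17 for rho). miR-34b-5p and miR-34c-3p had r = 0.73 and rho = 0.56 (permutation adjusted p = 0.046 and 0.20).

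Sham replicates 1 and 5 were the libraries farthest from the median of each of these measures. Without them r was 0.72 for miR-34b-5p with miR-34c-5p, 0.74 for miR-34b-3p with miR-34c-5p and 0.75 for miR-34b-3p with miR-34c-3p (permutation adjusted p = 0.33 each). It was 0.35 between the arms of miR-34c, 0.13 between the arms of miR-34b and -0.012 for miR-34b-5p with miR-34c-3p, so these 3 relations rest on those libraries. Centred within each group, the first 3 had r = 0.94, 0.91 and 0.91 over the 10 libraries. Both libraries belong to the sham group, so centring keeps their pull on r. Centred without them, the same relations had r = 0.80, 0.68 and 0.75 (permutation adjusted p = 0.28, 0.34 and 0.28). The labels and file headers name no batch within which the relations could be recomputed.

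miR-34a-5p had r = 0.43 with miR-34c-3p (rho = 0.54), 0.41 with miR-34b-5p (rho = 0.33), 0.40 with miR-34c-5p (rho = 0.10), 0.30 with miR-34b-3p (rho = 0.12) and 0.035 with miR-449a-5p (rho = 0.055). Over the 10 libraries as they stand, none of its relations passed (permutation adjusted p = 0.29 to 0.93 for r). Without the 2 libraries farthest from its median, 2-VO replicate 5 and sham replicate 1, its r with the 4 members of the miR-34b/c transcript was -0.017 to 0.12. Centred within each group, so that the difference between groups is removed, those 4 values of r were 0.61 with miR-34b-5p, 0.70 with miR-34b-3p, 0.71 with miR-34c-5p and 0.78 with miR-34c-3p, and centring changed the call. The last 3 passed when centred values were permuted over all 10 libraries (permutation adjusted p = 0.035, 0.035 and 0.030). When they were permuted within each group, a test added after seeing the data, miR-34c-3p passed (exact permutation adjusted p = 0.017), and the other 3 did not (0.090 to 0.13). Without sham replicates 1 and 5 the centred values of r were 0.0066 to 0.51, and 0 passed in either test. Whether miR-34a-5p follows miR-34c-5p less closely than miR-34b does was not tested. miR-449a-5p had negative r with all 4 members of the miR-34b/c transcript, from -0.67 with miR-34c-3p to -0.44 with miR-34b-5p (permutation adjusted p = 0.074 to 0.29), and 0 of these passed. Its coefficient of variation over the 10 libraries was 11.2%, below its counting error of 17.6%. The 4 members also varied together, so these are not separate relations.

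**Figure D4:**
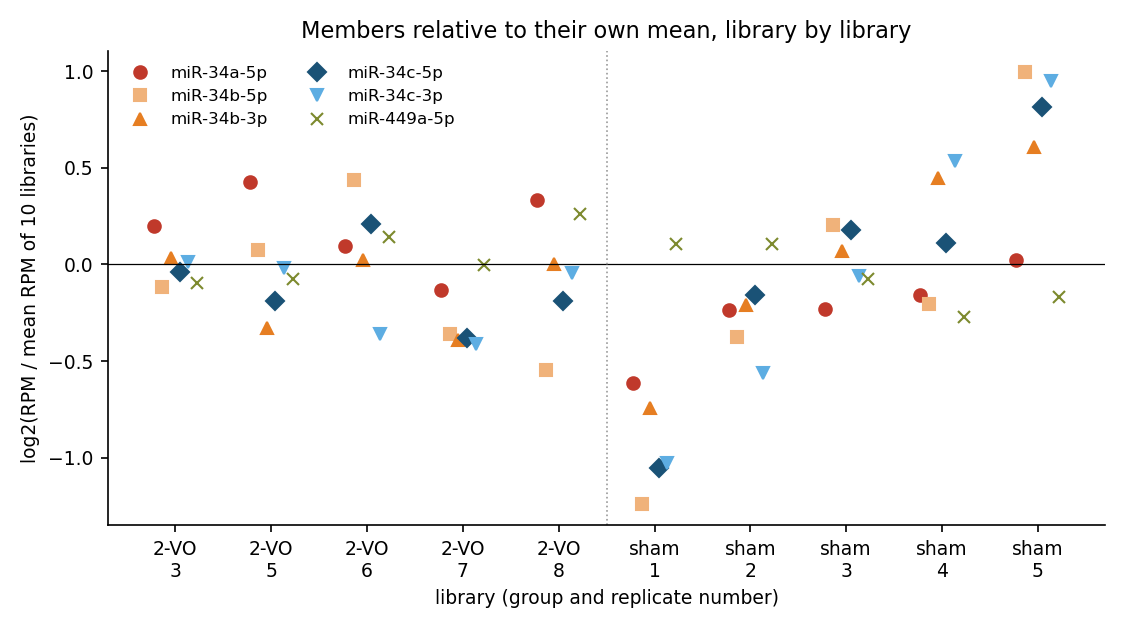
Log2 of each member's RPM over its own mean of the 10 libraries (y axis), by library (x axis), 2-VO libraries left of sham libraries. Markers are members. The 4 markers of the miR-34b/c transcript lie lowest in sham replicate 1 and highest in sham replicate 5, and miR-34a-5p is also lowest in sham replicate 1. miR-34a-5p lies above its mean in 4 of the 5 2-VO libraries.

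The miRNAs of the choroid plexus and ependyma list, chosen for ventricular tissue beside the hippocampus, summed highest in sham replicate 5. No other tissue was compared, so whether these miRNAs are particular to that tissue was not tested. The miR-34b/c members were also highest in sham replicate 5. In sham replicate 1, where those members were lowest of all libraries, the sum was 790 RPM, within the 617 to 802 RPM of 2-VO. The list held 9 miRNAs other than the members, of which 7 were in the table and tested and 0 were at 0 throughout. Its summed level was 617 to 802 RPM in 2-VO and 790 to 1955 RPM in sham libraries, highest in sham replicate 5. Of the 7 miRNAs 1 had a log2 fold change above 0 and 6 below, where 37.8% of all 474 miRNAs lay above and 62.2% below. Of the 7, 0 passed and 2 had an unadjusted p under 0.05 (limma), against 5.06% of all miRNAs tested. Their median was -0.33, where the median of all 474 miRNAs was -0.051. miR-204-5p, the most abundant of them, stood at 548, 393, 469, 367 and 385 RPM in 2-VO, against 563, 627, 624, 523 and 893 RPM in sham libraries (log2 fold change -0.57 ± 0.15, SE, limma adjusted p = 0.44). miR-448-3p, from an intron of the serotonin receptor gene Htr2c, stood at 9.99, 16.3, 17.5, 18.6 and 26.7 RPM in 2-VO, against 9.67, 25.9, 18.0, 20.3 and 51.4 RPM in sham libraries. miR-1298, of the same host gene, averaged 251 ± 73.8 RPM in 2-VO and 437 ± 319 RPM in sham libraries.

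The mean log2 level of this list had r = 0.79 with miR-34c-5p, 0.75 with miR-34b-3p and 0.74 with miR-34c-3p (permutation adjusted p = 0.045, 0.045 and 0.046), with rho of 0.58, 0.62 and 0.43 (permutation adjusted p = 0.20, 0.18 and 0.33). With miR-34b-5p it had r = 0.67 and rho = 0.35 and did not pass (permutation adjusted p = 0.079 and 0.43). Without sham replicates 1 and 5 the r was 0.072, 0.25, 0.0026 and, for miR-34b-5p, -0.39, so these relations rest on those libraries. With miR-34a-5p the list had r = 0.12 and with miR-449a-5p r = -0.34 (permutation adjusted p = 0.77 and 0.41). Without sham replicates 1 and 5 the r with miR-34a-5p was -0.53. Centred within groups the r with miR-34a-5p was 0.73 (adjusted p = 0.035 permuted over all libraries, exact permutation adjusted p = 0.089 within groups), and 0.29 without those libraries. The part of choroid plexus or ependymal tissue in the spread of miR-34b/c was not tested. In bulk tissue, fewer cells of a type and less RNA per cell cannot be told apart. A list of epithelial and sensory cell miRNAs summed to 29.0 to 109.7 RPM in 2-VO and 20.6 to 92.9 RPM in sham libraries, with miR-141-3p listed at 0 throughout. Of its 9 miRNAs 6 were tested, with 5 log2 fold changes above 0 and 1 below (37.8% and 62.2% of all miRNAs tested). Of these 6, 0 passed the threshold, and their median was 0.50. The highest sum was in 2-VO replicate 3, and the mean sum was 56.5 RPM in 2-VO and 55.5 RPM in sham libraries. The most abundant was miR-375-3p, the 1 below 0, at 24.0 ± 4.87 RPM in 2-VO and 39.6 ± 24.8 RPM in sham libraries. Next came miR-182, a miRNA of sensory cells, at 9.19 ± 4.13 RPM in 2-VO and 6.22 ± 2.25 RPM in sham libraries.

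**Figure D5:**
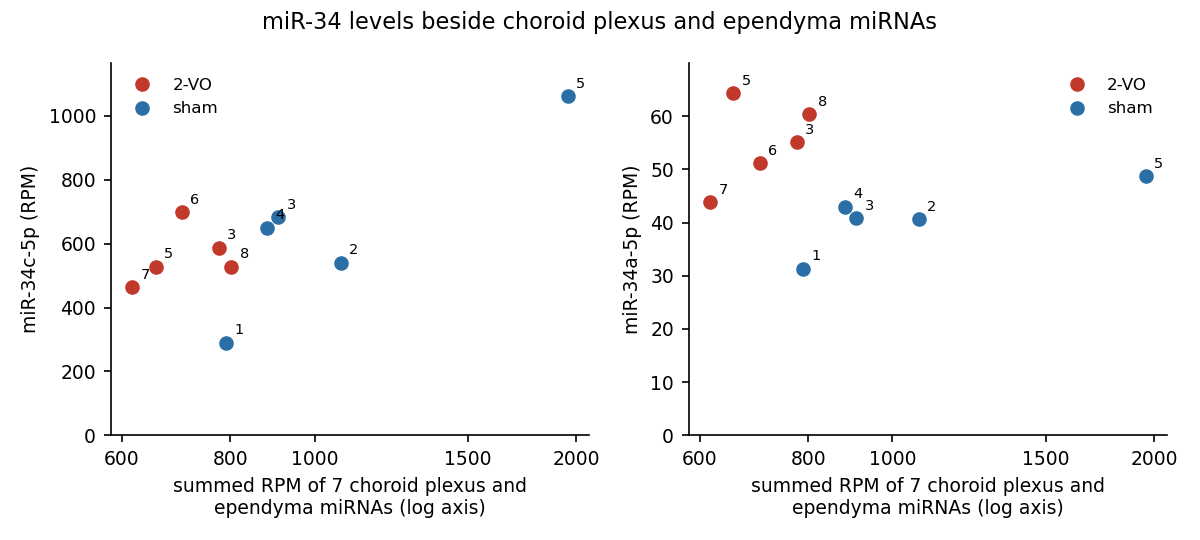
RPM of miR-34c-5p (left) and miR-34a-5p (right) on the y axes, from 0, against the summed RPM of 7 choroid plexus and ependyma miRNAs (log x axis). Points are libraries, labelled by replicate number. Sham replicate 5 stands apart at 1955 RPM of the list, with 1061 RPM of miR-34c-5p and 48.7 RPM of miR-34a-5p.

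Other miRNAs reported as p53-regulated in human or mouse cells divided by direction about as all miRNAs tested did. Of 12 on a list that leaves out the members, 11 were in the table and 10 were tested. Of these 10, 4 log2 fold changes lay above 0 and 6 below, and 0 passed the threshold. Of all miRNAs tested, 37.8% lay above 0 and 62.2% below. The part of p53 in these levels or in that of miR-34a-5p was not tested. The median of the 10 was -0.047, near the -0.051 of all miRNAs tested, and the highest of them was 0.17 against 0.42 for miR-34a-5p. The most abundant were miR-143-3p, a smooth muscle miRNA, at 12201 ± 2065 RPM in 2-VO and 12374 ± 847 RPM in sham libraries, and miR-22-3p at 1253 ± 109 and 1386 ± 135 RPM (log2 fold changes -0.035 and -0.14, limma adjusted p = 0.96 and 0.82).

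Among 336 other miRNAs averaging 10 RPM or more, those most like miR-34a-5p over the 10 libraries were miR-195-5p (r = 0.83), miR-135b-5p (0.80), miR-26b-5p (0.79) and miR-210-3p (0.79). The row of miR-3574 repeats the values of miR-210-3p and came next. miR-210-3p, a miRNA induced in hypoxia, averaged 75.9 ± 7.86 RPM in 2-VO and 62.5 ± 8.53 RPM in sham libraries (limma adjusted p = 0.76), and its r with miR-34a-5p centred within groups was 0.59. Centred in that way, miR-195-5p, miR-135b-5p and miR-26b-5p had r = 0.82, 0.81 and 0.90. Those most like miR-34c-5p were miR-181b-5p (r = 0.88), miR-423-3p (0.87), miR-375-3p (0.84), miR-219a-5p (0.83) and the inflammation-induced miR-21-5p (0.81). Centred within groups, these had r = 0.88, 0.89, 0.85, 0.86 and 0.83. Sham replicates 1 and 5 set the range of miR-34c-5p, and r without them was not computed for these miRNAs. miR-375-3p, of endocrine cells and also on the epithelial list, averaged 24.0 ± 4.87 RPM in 2-VO and 39.6 ± 24.8 RPM in sham libraries, while miR-181b-5p averaged 1016 ± 155 and 1025 ± 184 RPM. These likenesses were picked as the highest of many and describe the 10 libraries, which share the divisor of each library.

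The remaining marker lists were read beside miR-34a-5p. For scale, 37.8% of all miRNAs tested had a log2 fold change above 0 and 62.2% below. Of the neuronal miRNAs 3 lay above 0 and 4 below, with miR-128-3p at 50299 ± 6612 RPM in 2-VO and 54750 ± 3993 RPM in sham libraries and miR-218a-5p at 14610 ± 2438 and 14461 ± 1106 RPM. Oligodendrocyte miRNAs, led by miR-219a-2-3p at 2016 ± 497 and 2209 ± 345 RPM and miR-338-3p at 127 ± 33.8 and 116 ± 30.3 RPM, had 2 above and 1 below. Leukocyte and microglia miRNAs had 3 above and 1 below and summed to 233 to 297 RPM in 2-VO and 243 to 286 RPM in sham libraries. Vessel wall miRNAs had 1 above and 3 below, and of these miR-143-3p and miR-145-5p are also on the p53 list. Endothelial miR-126a-3p averaged 6607 ± 961 RPM in 2-VO and 6889 ± 412 RPM in sham libraries. The red blood cell miRNAs had 2 above and 1 below, with 84.1 to 215 RPM in 2-VO and 130 to 155 RPM in sham libraries. No member of these lists passed (limma, adjusted over all 474 miRNAs), and their part in the level of miR-34a-5p was not tested.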

How the data were processed

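Small RNA sequencing of total RNA from hippocampus gave 5 libraries of the 2-VO group and 5 of the sham group. Per the file name and headers, the deposited values are RPM (reads scaled to a fixed library total), computed by the authors, for 765 mature miRNAs. bcl2fastq, BWA and the rat build rn6 are named per the submitters' processing notes. Which annotation was used, how reads matching several miRNAs were assigned and what the divisor includes were not given in the sources used here. With 1 divisor for each library, all 4962 nonzero values gave whole reads (tolerance 0.01 reads), the lowest being 10. The authors' RPM depends on the reads outside the table.

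The deposited RPM were taken as log2(RPM + 1) for 474 miRNAs, those averaging 1 RPM or more. 2-VO was compared with sham in limma 3.58.1 in R 4.3.3 (mean-variance trend, two-sided, no covariate, Benjamini-Hochberg, threshold 0.05). Fold changes on this scale understate the change of low miRNAs. Arm ratios were compared with limma over 132 hairpins. Ratios between members were compared by exact permutation over 252 assignments, whose smallest possible p is 0.0079. Correlations used permutation in numpy 2.4.6. Intervals are 95%. A planned quasi-likelihood count test was not run, since the table holds RPM with values under 10 reads left out, and voom, from limma, was applied to the whole reads. Counting error was taken as that of whole reads, and PCR copies are counted as reads because the labels' protocols name no molecular identifiers.

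The members, lists and settings were chosen with earlier results of these data known. Named miRNAs are the 8 members, any sharing their seeds, the 2 most abundant of each list with miR-204-5p and miR-448-3p, and the 5 most like miR-34a-5p and miR-34c-5p. Permutation within groups and settings with sham replicates 1 and 5 left out together, or 2-VO replicate 3 and sham replicate 5, were chosen after seeing the data. Other settings changed the pseudocount, filter, scaling, weights, robust option, test and block, or left out each library.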

Additional observations from a re-analysis of the deposited data

Results flagged for a closer look

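Of 88 groups of 5 values, 7 held a library whose gap to the nearest other was above 0.71 of the group's range, where about 4.4 would be found by chance. That expectation takes the groups as independent. They were not, since list sums hold their own miRNAs and ratios hold the members. Causes were not tested. Among the members, the ratio of miR-34c-5p to miR-34c-3p was 110.7 in 2-VO replicate 6, against 65.9 to 76.2 in the other 2-VO libraries. Of the choroid plexus and ependyma list, sham replicate 5 had the highest miR-204-5p (893 RPM, others 523 to 627), the highest miR-1298 (993 RPM, others 210.0 to 405) and the highest sum (1955 RPM, others 790 to 1071). miR-1298 was also highest in 2-VO replicate 8 (381 RPM, others 207 to 237). The epithelial and sensory list summed to 109.7 RPM in 2-VO replicate 3, against 29.0 to 51.2 RPM in the other 2-VO libraries. miR-26b-5p was lowest in 2-VO replicate 7 (659 RPM, others 794 to 849.9).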

How the results depend on the processing

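miR-34a-5p stayed above 0 and did not pass in any of 25 other settings (log2 fold change 0.33 to 0.50, limma adjusted p at least 0.25), and so did miR-449a-5p in 24 (0.026 to 0.11). miR-34b-3p stayed below 0 in 25. miR-34b-5p lay above 0 with a pseudocount of 0.5 RPM (0.0050), scaled to listed reads (0.044), with TMM (0.040), median-of-ratios factors (0.043), array weights (0.047), voom (0.025), and without sham replicates 1 and 5 (0.022) or 2-VO replicate 3 and sham replicate 5 (0.23). Leaving out 1 library gave -0.22 to 0.23 for it, -0.35 to 0.11 for miR-34c-5p and -0.35 to 0.088 for miR-34c-3p. Without 2-VO replicate 3 and sham replicate 5 the last 2 were 0.093 and 0.050. Leaving out 1 library gave 0 miRNAs past the threshold each time, 13 (without sham replicate 2) to 42 (without 2-VO replicate 6 or 8) at an unadjusted limma p under 0.05, 0 to 3 hairpins, and arm ratio differences of 0.035 to 0.27 for miR-34b and -0.088 to 0.12 for miR-34c. Array weights gave 43 and median-of-ratios factors 37 at that unadjusted p. The cause of these shifts was not tested, and the planned quasi-likelihood count test was not run.

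Titles give both groups the replicate numbers 3 and 5, but same-numbered libraries did not deviate together (r = -0.058 and -0.18), so the numbers are not taken as pairs. With the number as a block, the fit leaves 1 residual degree of freedom. Only the numbers 3 and 5 occur in both groups, so only the libraries with these numbers inform the group difference. For miR-34c-5p, 2-VO replicate 3 had 588 RPM and sham replicate 3 had 683 RPM. Its level was 529 RPM in 2-VO replicate 5 and 1061 RPM in sham replicate 5, the highest of all libraries. In this fit 8 of 474 miRNAs passed, none of them a member (limma adjusted p = 0.997 for each). The log2 fold changes were 0.41 for miR-34a-5p (95% interval -0.20 to 1.01, which now holds 0), -0.61 for miR-34c-5p (-1.21 to -0.0071, which does not), -0.53 for miR-34b-5p, -0.46 for miR-34b-3p, -0.41 for miR-34c-3p and 0.026 for miR-449a-5p (miR-34b arm ratio -0.071, miR-34c arm ratio -0.20).

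For the ratios of miR-34a-5p, a pseudocount of 5 RPM gave 4 of 5 past the threshold, with differences of 0.52 (miR-34b-3p), 0.50 (miR-34c-3p), 0.41 (miR-34b-5p) and 0.35 (miR-449a-5p). Leaving out 1 library gave 0 to 3, with differences of 0.47 to 0.67 (miR-34b-3p), 0.37 to 0.68 (miR-34c-5p), 0.40 to 0.68 (miR-34c-3p), 0.26 to 0.56 (miR-34b-5p) and 0.22 to 0.43 (miR-449a-5p). Of the 9 relations that passed, 3 did without sham replicate 1 or without sham replicate 5, and 0 without both or without the 2 farthest libraries, where r of miR-34b-5p and miR-34c-3p was -0.012. Centred within groups, 15 of 21 relations passed, or 4 when also permuted within groups, and 0 by either without both sham libraries. Centred without them, that r was -0.0032, and r with the choroid plexus and ependyma list was -0.23 (miR-34b-3p), -0.48 (miR-34c-5p) and -0.31 (miR-34c-3p). Members averaging under 10 RPM rest on 26 to 204 reads a library, and listing from 10 reads limits the rest.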
